A study of Mus musculus with 4 samples.

Results

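B cell identity genes were followed through RNA sequencing of sorted splenic natural killer (NK) cells. The set was given as 37 mouse genes that encode the B cell antigen receptor, its signalling proteins, the transcription factors of the lineage and receptors of mature B cells. Members were matched to NCBI Gene numbers by symbol and kept at 1 FPKM (fragments per kilobase of transcript and per unit of sequencing depth, a level corrected for length) or more in any library. This left 35 of 37 members, of 17723 genes with a value in any library. The heavy chain genes Ighm and Ighd had no value in any library, as had the other constant region genes of immunoglobulin on a list of 12, and they are not analysed here. All 35 kept members passed 1 FPKM in every library, so none was kept through its higher group alone.

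The cells came from C57BL/6J mice labelled as 6 to 8 weeks old. The 4 groups were DNAM-1+ and DNAM-1- NK cells of normal spleen (day 0), and DNAM-1+ and DNAM-1- NK cells of spleen at day 17 after transfer of GFP-positive MLL-AF9 acute myeloid leukaemia (AML) cells into unirradiated mice. Each group holds 1 library, so a difference between 2 libraries is unreplicated. The labels name the sort on DNAM-1, and other gates, purity and the number of mice behind a library are not given in the sources used here.

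DNAM-1 is an activating receptor of NK and T cells, and NK cells are innate lymphocytes with no rearranged antigen receptor. A B cell displays membrane immunoglobulin together with the signalling chains CD79A and CD79B. When antigen binds, Src family and Syk kinases phosphorylate these chains, and adaptors and BTK carry the signal on to calcium and NF-kappaB. EBF1 and PAX5 set up and hold this programme during development, and the spleen is a main home of follicular and marginal zone B cells.

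The sorted marker followed the labels. Cd226, the gene of DNAM-1, was at 38.6 and 36.1 FPKM in the DNAM-1+ libraries of normal and AML spleen, and at 0.45 and 0.58 FPKM in the DNAM-1- libraries. The NK receptor gene Ncr1 lay between 383 and 597 FPKM in all 4 libraries and the pan-leukocyte gene Ptprc between 709 and 755. The libraries listed 15460 to 16161 genes. Their depth, inferred from how finely low microRNA values are stepped, was 9000000 to 9400000 fragments.

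Start-site sequences are shown for 4 of the 7 members with a window that holds a short motif of B cell or blood cell regulators, at least 1 for each motif. The 4 were picked after the matches and values were seen. The RefSeq table (GRCm38.p6) gives windows from 250 bases before to 50 after a start site, and 30 of the 35 kept members had 1 or more, in 40 windows. Capitals mark the motif, found on either strand, and no motif overlapped another in these 4 windows.

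Vpreb3 (chr10:75948050-75948349, + strand, octamer motif): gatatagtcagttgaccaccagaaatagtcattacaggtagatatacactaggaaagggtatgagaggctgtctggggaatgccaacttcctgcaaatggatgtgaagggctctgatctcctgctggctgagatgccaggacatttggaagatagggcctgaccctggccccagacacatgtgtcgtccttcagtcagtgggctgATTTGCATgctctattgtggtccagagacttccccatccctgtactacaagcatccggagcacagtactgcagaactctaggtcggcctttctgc

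Cd22 (chr7:30878979-30879278, - strand, EBF core motif): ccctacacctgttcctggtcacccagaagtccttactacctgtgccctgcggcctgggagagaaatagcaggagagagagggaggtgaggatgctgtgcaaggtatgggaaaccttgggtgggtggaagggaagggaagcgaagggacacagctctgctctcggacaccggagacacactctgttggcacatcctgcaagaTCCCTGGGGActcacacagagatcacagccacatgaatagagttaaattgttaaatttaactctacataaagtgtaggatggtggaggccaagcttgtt

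Fcrl1 (chr3:87376137-87376436, + strand, ETS motif): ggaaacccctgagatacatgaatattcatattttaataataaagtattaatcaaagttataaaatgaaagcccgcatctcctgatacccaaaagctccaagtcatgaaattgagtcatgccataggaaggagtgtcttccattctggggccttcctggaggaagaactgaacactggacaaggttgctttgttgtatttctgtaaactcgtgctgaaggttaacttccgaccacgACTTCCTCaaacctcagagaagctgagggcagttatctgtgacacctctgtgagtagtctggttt

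Cd72 (chr4:43454577-43454876, - strand, ETS motif): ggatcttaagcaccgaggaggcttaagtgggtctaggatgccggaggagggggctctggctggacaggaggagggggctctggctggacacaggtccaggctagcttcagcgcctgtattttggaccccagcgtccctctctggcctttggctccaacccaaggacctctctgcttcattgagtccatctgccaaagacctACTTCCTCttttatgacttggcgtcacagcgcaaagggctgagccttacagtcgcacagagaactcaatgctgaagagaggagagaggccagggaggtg

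The octamer ATGCAAAT, which Oct factors such as the product of the member Pou2f2 bind, was in 3 of 40 windows (Blnk, Ccr6 and Vpreb3), or 7.5%, against 1.74% of 32851 windows of all genes. The EBF core, TCCC and GGGA with any 2 bases between, was in 1 of 40 windows (Cd22), or 2.5%, against 0.904%. The ETS motif GAGGAAGT, of the kind that the SPIB and PU.1 factors bind, was in 3 of 40 (Cd72, Fcrl1 and Rasgrp3), or 7.5%, against 3.2%. These are matches of letters in one window a start site, over few windows, and most members held none of the 3 motifs. Vpreb3 and Cd22 were among the genes that were several-fold lower in DNAM-1+ cells, and Cd72 among those with a small difference, as described next.

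Every kept member was lower in DNAM-1+ than in DNAM-1- cells of both spleens, as were 50.4% of all genes in normal and 48.4% in AML spleen. In limma, fitted to all genes of the 4 libraries with the spleen as an additive term, 35 of 35 members fell in DNAM-1+ cells at a Benjamini-Hochberg adjusted p below 0.05 and 0 rose. Over all 12054 genes tested, 6.43% fell and 4.43% rose. These calls rest on the floor of 1 FPKM: in the same limma fit with no floor, 0 of 35 members were called (adjusted p 0.117 to 0.146), and all 35 had an unadjusted p under 0.05. For each of the 35 members, both DNAM-1+ values lay below both DNAM-1- values. The share of all genes with that order was not counted, so it gives no excess over the background. The log2 differences ran from -2.34 to -0.34 with standard errors of 0.06 to 0.19 and adjusted p-values of 0.000803 to 0.0316. The fit has 1 residual degree of freedom and tests the mean difference over both spleens, not whether it was alike in them. In these bulk libraries, fewer cells of a type and less RNA per cell cannot be told apart.

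**Figure D1:**
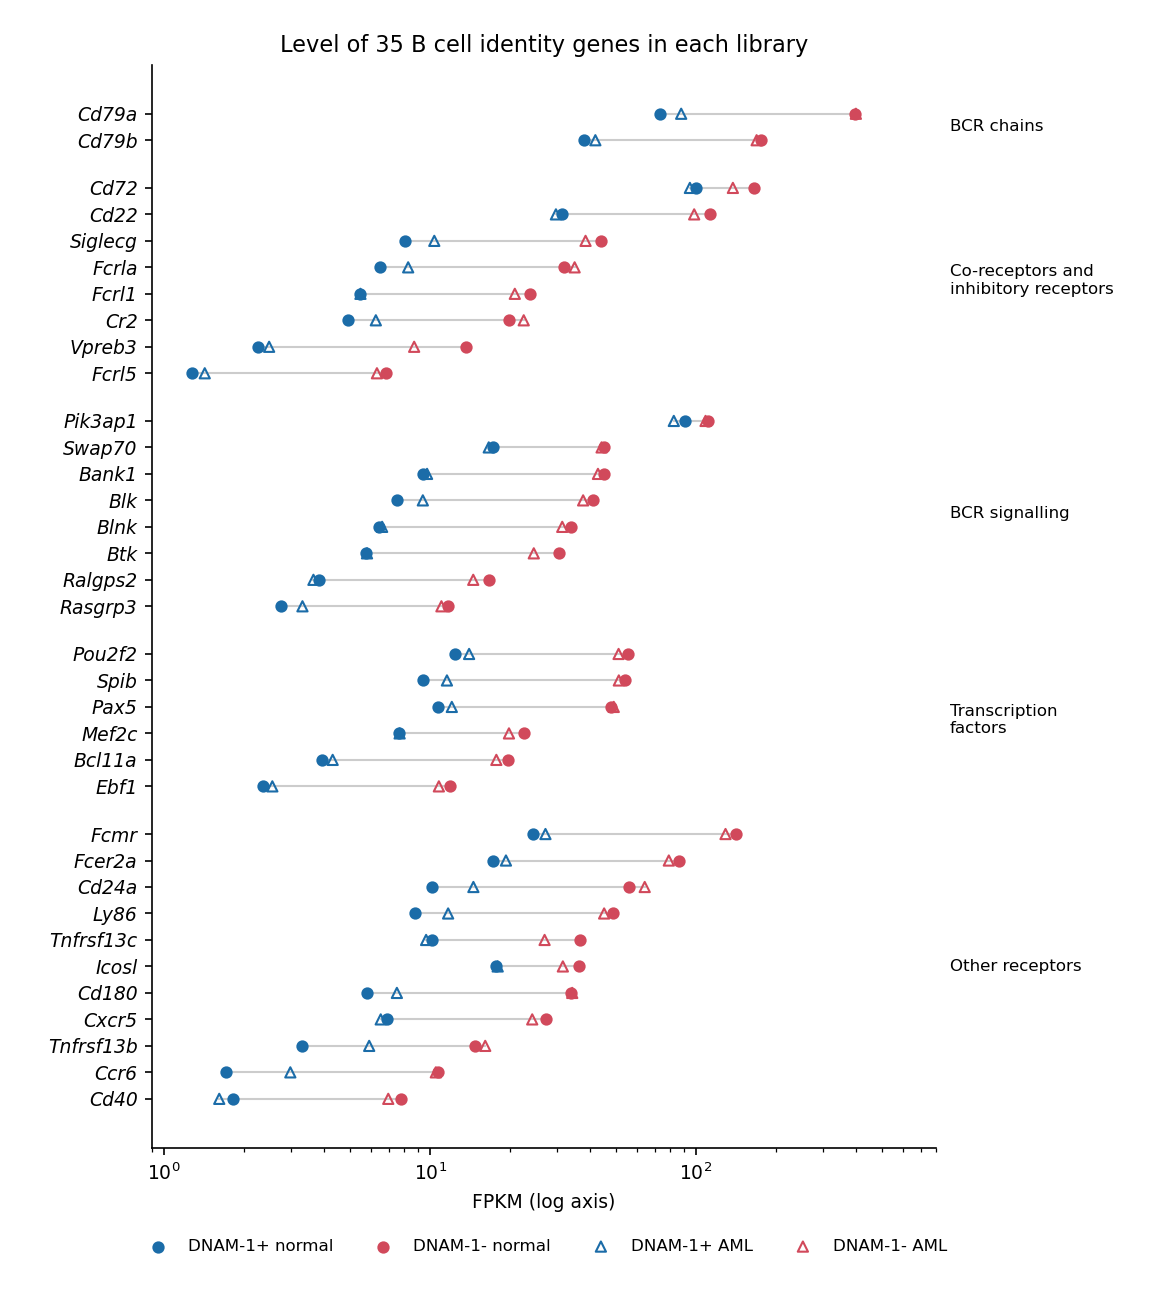
Level in FPKM (log axis) of the 35 kept genes in each of the 4 libraries, grouped by role; circles are normal spleen, triangles AML spleen, blue DNAM-1+ and red DNAM-1- cells. The blue symbols lie to the left of the red ones in every row, by the least for Pik3ap1 (82.6 to 91.0 FPKM against 109 to 111).

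The antigen receptor chains were the most abundant members in both DNAM-1- libraries. Each set of 4 values that follows is in FPKM and gives normal spleen first and AML spleen second, with DNAM-1+ before DNAM-1- cells in each. Cd79a (NCBI Gene 12518), one signalling chain of the receptor, was at 73.0, 395, 88.0 and 399.7. Both DNAM-1- libraries were high and nearly equal, and the DNAM-1+ libraries were 5.42-fold lower in normal and 4.54-fold lower in AML spleen (limma log2 difference -2.30, SE 0.08, adjusted p = 0.000803). Cd79b (15985), the partner chain, was at 38.1, 176, 41.9 and 169, and was 4.61-fold and 4.04-fold lower in DNAM-1+ cells.

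Co-receptors and receptors that tune the antigen receptor signal were 3.31-fold to 6.06-fold lower in DNAM-1+ cells, with 1 exception. Cd22 (12483), an inhibitory lectin that binds sialic acid, was at 31.3, 113, 29.7 and 98.5 FPKM, 3.60-fold and 3.31-fold lower. Siglecg (243958), a lectin of the same kind, was at 8.06, 43.9, 10.4 and 38.4, so the DNAM-1- libraries stood well above the DNAM-1+ ones in both spleens. Cr2 (12902), the complement receptor that is high on marginal zone cells, was at 4.91, 19.9, 6.25 and 22.5. The Fc receptor-like genes Fcrl1 (5.44, 23.7, 5.47 and 20.8), Fcrl5 (1.27, 6.83, 1.42 and 6.31) and Fcrla (6.50, 32.0, 8.27 and 35.0) showed the same order of libraries, as did Vpreb3 (2.26, 13.7, 2.48 and 8.71), which encodes a protein that assists receptor assembly. Vpreb3 rests on few reads, about 12.5 in its lowest library at the estimated depth. The exception was Cd72 (12517), an inhibitory receptor, at 100.3, 166, 94.9 and 138 FPKM. It was only 1.65-fold lower in normal and 1.45-fold lower in AML spleen, and it was the most abundant member in both DNAM-1+ libraries (limma log2 difference -0.63, SE 0.07, adjusted p = 0.00898).

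Among proteins of the signalling cascade, 6 of 8 were more than 3-fold lower in DNAM-1+ cells of both spleens. Blnk (17060), the adaptor that links Syk to BTK and phospholipase C, was at 6.42, 34.0, 6.60 and 31.4 FPKM. Btk (12229), the kinase whose loss blocks B cell development in human agammaglobulinaemia, was at 5.76, 30.6, 5.79 and 24.6. The 2 DNAM-1+ values of Btk were nearly the same, and the DNAM-1- values were 5.32-fold and 4.24-fold above them. The Src family kinase gene Blk (7.48, 40.9, 9.39 and 37.6) and the scaffold gene Bank1 (9.41, 45.0, 9.74 and 42.8) behaved alike. Rasgrp3 (2.74, 11.7, 3.31 and 11.03), an activator of Ras, and Ralgps2 (3.83, 16.7, 3.64 and 14.5), an activator of Ral, were lower in level but showed a similar fold.

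The other signalling members differed less. Swap70 (20947), which acts on Rac and the actin skeleton, was at 17.3, 45.2, 16.6 and 44.2 FPKM, or 2.62-fold and 2.66-fold lower in DNAM-1+ cells. Pik3ap1 (83490), which encodes the adaptor BCAP that recruits phosphoinositide 3-kinase and is also known from NK cells and macrophages, was at 91.0, 111, 82.6 and 109. Its DNAM-1+ libraries were 1.22-fold and 1.32-fold lower (limma log2 difference -0.34, SE 0.06, adjusted p = 0.0316). That call was also lost without the mean-variance trend (limma adjusted p = 0.13) and with the spleen left out of the fit (limma adjusted p = 0.0553), and the call of Cd72 was lost without the trend (limma adjusted p = 0.0581).

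All 6 transcription factor genes fell. Pax5 (18507), which holds B cell identity, was at 10.7, 48.0, 12.1 and 49.1 FPKM. Ebf1 (13591), which acts before it, was at 2.36, 11.9, 2.55 and 10.8. The DNAM-1+ libraries were 4.47-fold (normal) and 4.07-fold (AML) lower for Pax5, and 5.03-fold and 4.23-fold lower for Ebf1. Spib (272382), an ETS factor also known from plasmacytoid dendritic cells, was at 9.37, 54.0, 11.6 and 51.3, the widest gap of the 6. Pou2f2 (12.4, 55.7, 14.0 and 51.2), the gene of Oct-2, and Bcl11a (3.92, 19.6, 4.30 and 17.8), also known from plasmacytoid cells, lay close to Pax5 in fold. Mef2c (17260), which is also expressed in myeloid cells and muscle, was at 7.66, 22.5, 7.68 and 19.8, only 2.94-fold and 2.58-fold lower.

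Receptors for survival, help and homing followed. Tnfrsf13c (72049), the BAFF receptor that keeps mature B cells alive, was at 10.1, 36.6, 9.66 and 27.0 FPKM. Tnfrsf13b (57916), the gene of TACI, was at 3.29, 14.7, 5.90 and 16.1, and its DNAM-1+ value was higher in AML than in normal spleen. Cd40 (21939), the receptor for T cell help, was at 1.81, 7.75, 1.61 and 6.96. Icosl (50723), which costimulates T cells and is also made by dendritic cells and monocytes, was at 17.6, 36.2, 18.0 and 31.6. Its fold, 2.05 and 1.76, was below that of most members.

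The follicle homing receptor gene Cxcr5 (6.89, 27.2, 6.52 and 24.2 FPKM) and Ccr6 (1.71, 10.7, 2.98 and 10.5) showed the common order, Ccr6 at few reads. Fcer2a (14128), the low-affinity IgE receptor CD23 of follicular B cells, was at 17.2, 86.3, 19.3 and 79.1. Fcmr (69169), the IgM Fc receptor, was at 24.5, 141, 27.2 and 129 and had the furthest limma difference of all members (-2.34, SE 0.08, adjusted p = 0.000803). The pair Cd180 (5.77, 34.0, 7.50 and 34.2) and Ly86 (8.77, 49.0, 11.7 and 45.1), whose products bind each other, stood 5.90-fold and 5.58-fold lower in DNAM-1+ cells of normal spleen. Cd24a (12484), a small surface glycoprotein also found on neutrophils and erythroid cells, was at 10.1, 55.8, 14.6 and 64.2. It was highest in DNAM-1- cells of AML spleen, and both DNAM-1+ values lay far below both DNAM-1- values.

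The DNAM-1+ to DNAM-1- ratios of most members lay near one value, while their levels spanned 6.83 to 395 FPKM in DNAM-1- cells of normal spleen. Taken on FPKM with no pseudocount, the median ratio of the 35 members was 0.209 in normal spleen (log2 -2.26, quartiles -2.44 and -2.06) and 0.251 in AML spleen (log2 -1.997, quartiles -2.10 and -1.77). On that scale, chosen after seeing the data, 30 of 35 members lay within 1.5-fold of the median in each spleen. The 5 outside it were Cd72, Pik3ap1, Swap70, Mef2c and Icosl in both spleens, each with a ratio nearer to 1. The members just inside and just outside that limit in normal spleen were Cd22 (log2 ratio -1.85) and Mef2c (-1.56), and in AML spleen Tnfrsf13b (-1.45) and Swap70 (-1.41), which lay almost on the limit. After adding 1 FPKM the count was 30 of 35 in normal and 32 of 35 in AML spleen, where Swap70 and Mef2c lay inside. Of all genes 87.2% in normal and 89.1% in AML spleen lay within 1.5-fold of the median of all genes, so the members' share was near the background.

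**Figure D2:**
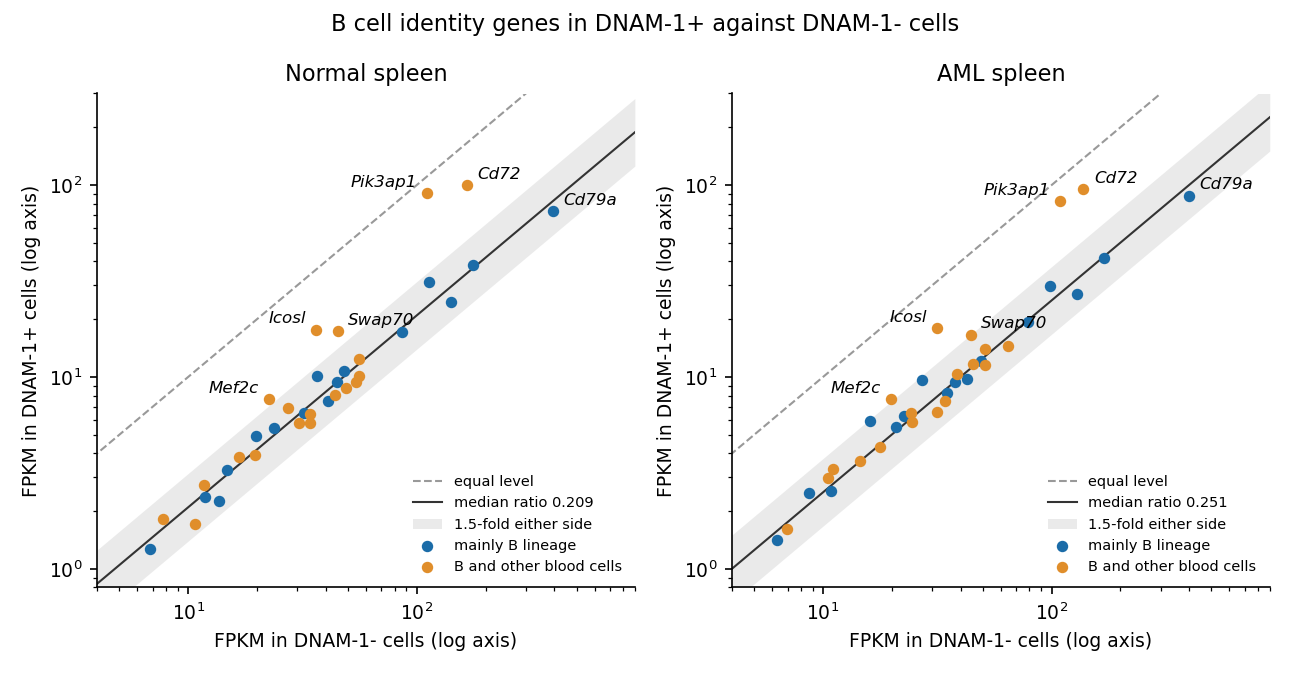
Level of the 35 genes in DNAM-1+ cells (vertical) and DNAM-1- cells (horizontal), in FPKM on log axes, with a panel each for normal and AML spleen; the solid line is the median ratio (0.209 and 0.251), the grey band 1.5-fold to either side and the dashed line equal levels. In both panels 30 genes lie in the band and 5 above it, Pik3ap1 and Cd72 nearest to the dashed line.

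The spread depended on which members were taken. The 16 kept members known mainly from the B lineage all lay within 1.5-fold of their own median in both spleens, with an SD of the log2 ratio, with no pseudocount, of 0.22 in normal and 0.23 in AML spleen. The 19 members known also from other blood cells had medians near these, -2.17 and -1.89 against -2.28 and -2.02, but SDs of 0.67 and 0.56. All 5 genes outside the band belong to the second class. The classes were drawn up from general knowledge but with earlier results of these data known, so the split is not independent of them. After adding 1 FPKM, which shrinks the ratios of low genes, the medians of the 35 members were -2.06 and -1.75, against 0.00 in both spleens over all 12054 genes. By that measure the DNAM-1+ value was lower by 2-fold or more for 32 of 35 members in normal spleen, against 4.89% of all genes, and for 32 of 35 in AML spleen, against 3.68%. Cd72, Pik3ap1 and Icosl fell short of it in both, and 2.99% of all genes met it in both.

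Counting error limits how finely the ratios can be compared. From the estimated depth and transcript length, the 95% counting interval of a member's log2 ratio reached 0.24 to either side at the median, from 0.06 for Pik3ap1 to 0.87 for Vpreb3. Only counting error is in it, and differences among mice or library preparations are not. In normal spleen the intervals of 22 of 35 members included the median of all members, 9 lay above it (Cd22, Cd72, Cr2, Pik3ap1, Swap70, Mef2c, Tnfrsf13c, Icosl and Cxcr5) and 4 below it (Cd79a, Spib, Fcmr and Cd180). In AML spleen 25 included it, 8 lay above and 2, Cd79a and Fcmr, below. The intervals of most members thus did not separate them from the median, while those of Pik3ap1, Cd72 and Icosl lay far above it. Members were not compared with each other, and the share of all genes whose interval missed a median was not counted. Across the 35 members the log2 ratios of the 2 spleens, which share no library, correlated with Pearson's r = 0.92, a description over genes that share libraries and depth. Over the 30 members within 1.5-fold of the median in normal spleen r was 0.53. Over all 12054 genes, after adding 1 FPKM, r was 0.65.

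**Figure D3:**
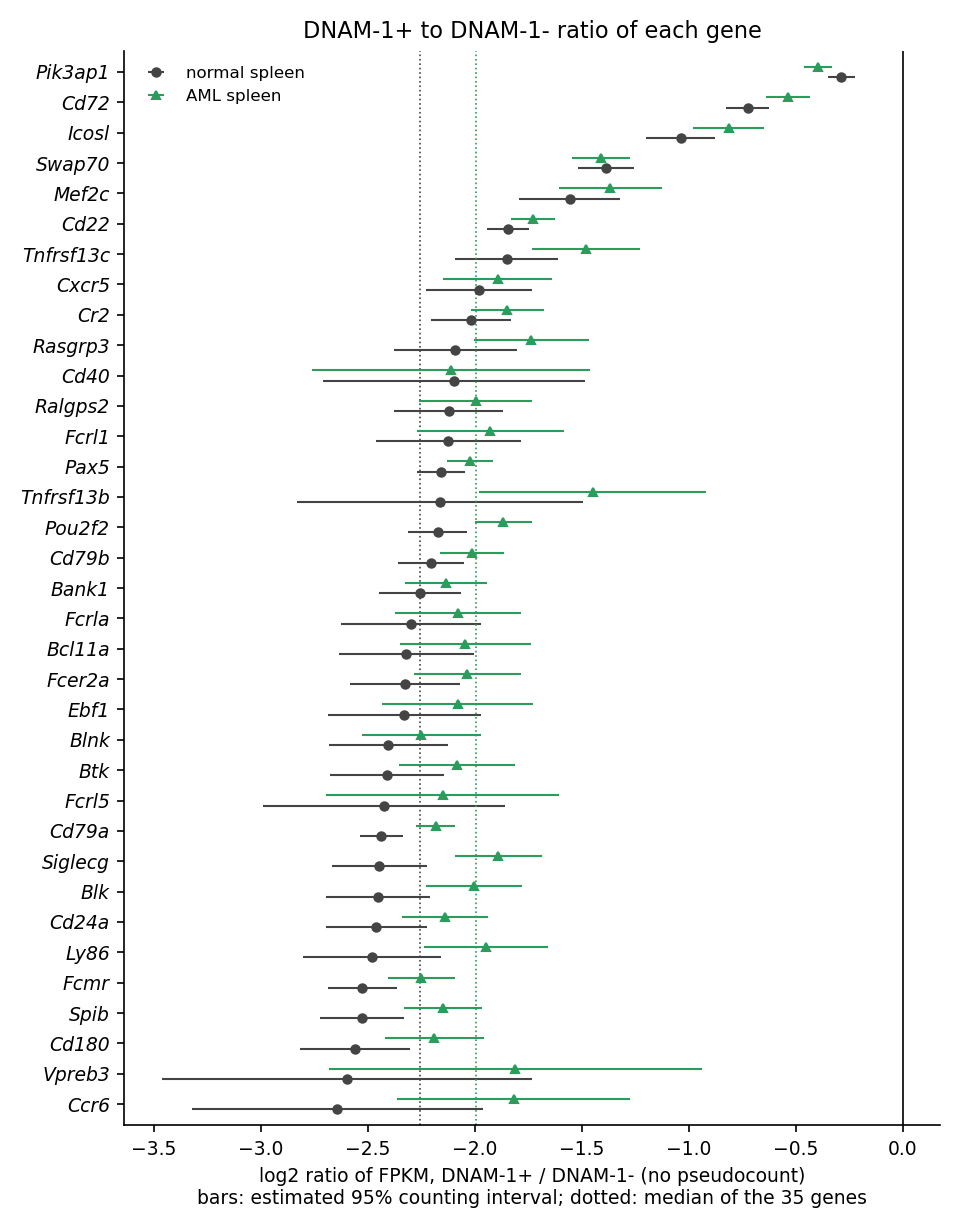
Log2 ratio of FPKM in DNAM-1+ to DNAM-1- cells (no pseudocount) of each gene in normal (circles) and AML spleen (triangles), with bars for the estimated 95% counting interval and dotted lines at the medians (-2.26 and -1.997). Most bars cross the line of their spleen, those of Pik3ap1, Cd72 and Icosl lie far to its right, and no bar reaches 0.

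The ratios of most members differed in the same direction between spleens. The DNAM-1+ to DNAM-1- log2 ratio, after adding 1 FPKM, was higher (nearer to 0) in AML than in normal spleen for 33 of 35 members, with a median change of 0.22. The same held for 53.3% of all genes tested, and for 80.8% of the 360 genes that met the 2-fold limit in both spleens. With no pseudocount 32 of 35 were higher, all but Pik3ap1, Swap70 and Cd40. The counting interval of the change lay above 0 for 11 members (Cd79a, Cd72, Siglecg, Blk, Spib, Pou2f2, Tnfrsf13c, Fcmr, Cd180, Ly86 and Cd24a) and below 0 for Pik3ap1. That interval holds counting error only, so it is narrower for genes with more reads. The share of all genes that met the same rule was not counted. The change of the ratio is the interaction of subset and spleen, which has no residual degrees of freedom here and was not tested.

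Within a subset the members differed little between spleens. In DNAM-1+ cells 27 of 35 members were higher in AML than in normal spleen, with a median log2 difference of 0.11 and a range of -0.14 to 0.69. In DNAM-1- cells 28 of 35 were lower, with a median of -0.12 and a range of -0.60 to 0.20. In DNAM-1+ cells 52.3% of all genes were higher in AML spleen, and in DNAM-1- cells 51.7% were lower. No member differed 2-fold between spleens in either subset, while in DNAM-1+ cells 0.896% of all genes were 2-fold higher and 0.846% 2-fold lower in AML spleen, and in DNAM-1- cells 0.606% and 0.987%. On the log2(FPKM + 1) scale the largest differences upward in DNAM-1+ cells were those of Tnfrsf13b (3.29 to 5.90 FPKM), Ccr6 (1.71 to 2.98) and Cd24a (10.1 to 14.6), and the largest downward in DNAM-1- cells were those of Vpreb3 (13.7 to 8.71) and Tnfrsf13c (36.6 to 27.0). In limma, with the subset as an additive term, 0 of 35 members rose or fell with AML (adjusted p 0.392 to 0.995), and 4, Cr2, Fcrla, Tnfrsf13b and Cd24a, had an unadjusted p under 0.05. Over all 12054 genes 0.0332% rose and 0.0415% fell, and 1232 had an unadjusted p under 0.05 in the same limma fit. The 2 AML comparisons each share a library with each DNAM-1 comparison.

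**Figure D4:**
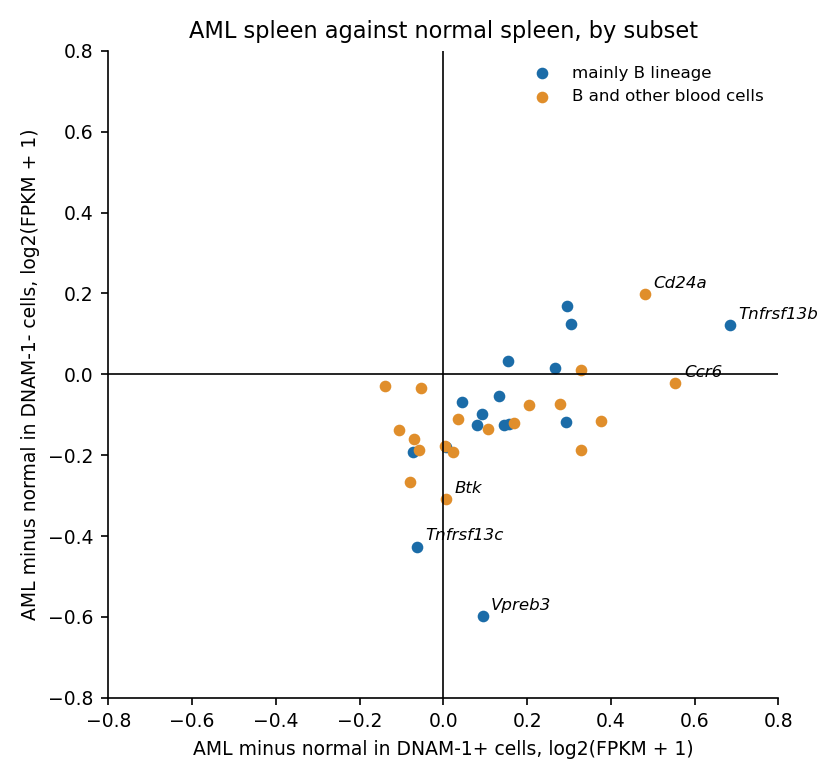
Difference between AML and normal spleen in log2(FPKM + 1) of the 35 genes, in DNAM-1+ cells (horizontal) and DNAM-1- cells (vertical), with genes known mainly from the B lineage in blue and genes known also from other blood cells in orange. Most points lie to the right of 0 (27 genes) and below 0 (28 genes), and none reaches 1 on either axis.

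Other genes that work with these members were counted by list. Of 26 further B cell surface and antigen presentation genes, 17 fell in DNAM-1+ cells and 1 (Ltb, a cytokine gene that NK cells also express) rose in limma, with median log2 ratios of -1.18 and -1.03. Cd74 (327.75, 1458, 391 and 1385 FPKM), H2-Ab1 (119, 556, 149.8 and 542) and H2-Aa (84.1, 474, 127 and 454), all of MHC class II presentation, fell. Cd2, an adhesion receptor of T and NK cells, was at 474, 395, 409.9 and 369.7 (limma adjusted p = 0.105). Ms4a1, the gene of CD20, was chosen after its values were seen and stood at 20.2, 89.5, 17.8 and 83.8 FPKM, close to the members in ratio.

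Of 24 signalling genes shared by the B cell receptor and other receptors, 8 fell and 0 rose, with medians of -0.16 and -0.21. Ptpn6, the phosphatase SHP-1, fell (111, 192, 120.3 and 189.8 FPKM), and so did the kinase gene Syk (93.5, 137, 89.3 and 131). Fyn (241, 218, 240.0 and 219.7) and Pik3cd (146, 149.9, 175 and 172) had limma adjusted p-values of 0.184 and 0.968. Of 18 further transcription factors of the lineage 10 fell and 0 rose, with medians of -0.38 and -0.40. Irf8 fell (185, 248, 186 and 238), while Klf2, Ikzf3 and Ikzf1, which NK cells also express, did not pass the test (limma adjusted p = 0.131, 0.653 and 0.554). Pou2af1, the partner of Oct factors at octamer sites, was chosen after its values were seen and stood at 7.50, 37.8, 7.68 and 36.3 FPKM.

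Stage genes were mixed. Of 12 progenitor genes 5 were kept, 1 of which rose and 0 fell. Rag1, Rag2, Dntt, Vpreb1, Vpreb2 and Igll1, which mark the pro-B and pre-B cell, stayed at or below 0.27 FPKM in all 4 libraries. The progenitor gene that rose was Il7r, which NK and T cells also use. Of the 11 kept follicular genes 8 fell (medians -1.07 and -0.84), among them the members Fcer2a and Cxcr5, while Satb1 did not pass (limma adjusted p = 0.143). Of 14 marginal zone genes 7 fell, the members Cr2 and Fcrl5 among them, and 2 (Dtx1 and Asb2) rose (medians -0.71 and -0.63). Plac8 fell (25.5, 138, 34.2 and 92.2), while Cd9, Tm6sf1 and Pdia4 did not pass (limma adjusted p 0.35, 0.445 and 0.233). Of 8 kept germinal centre genes 1 fell, Bcl6 (11.4, 29.4, 12.2 and 24.3), and 1 rose, Efnb1 (6.48, 3.21, 6.53 and 2.66). Of 11 kept B1 cell genes, the most abundant of which NK cells also express (Lgals1, Spn, Ahnak and Itgam), 2 fell (Bhlhe41 and the member Fcrl5) and 0 rose. Genes named here for being the few that were called in a list were chosen after their values were seen. Several of these lists share genes with the members, so they are not separate evidence.

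Markers of other cells also moved with the DNAM-1 sort, and their part in the member results was not tested. Sums of the kept markers are given in the order above. Monocyte markers summed to 970.0, 1530.2, 1114 and 1594 FPKM, with medians of -1.34 and -1.26, and 9 of 15 fell (Lyz2 and Csf1r among them) while 1, Ccr2, rose. Much of these sums came from Spn (382, 371, 428 and 424) and Itgam (162, 186, 184 and 215), neither of which was called (limma adjusted p = 0.786 and 0.0801). Macrophage markers summed to 69.9, 433, 77.7 and 346, with 9 of 11 kept markers falling and medians of -1.32 and -0.96. Apoe held most of that sum (38.8, 334, 43.0 and 266). Plasma cell markers summed to 143, 266, 152 and 377, and 6 of 9 fell while 1, Slamf7, rose. Jchain, the joining chain of secreted IgM and IgA, was at 12.6, 103, 18.2 and 206, so its highest value was in DNAM-1- cells of AML spleen. Conventional dendritic cell markers fell for 3 of 10 (Cd209a, Sirpa and Ccr7; sums 242, 304, 255 and 293) and plasmacytoid dendritic cell markers for 2 of 7 (Irf8 and Ly6d, both also expressed by B cells; sums 263, 410.4, 264 and 395). Itgax (226, 243, 229 and 224), which was not called (limma adjusted p = 0.752), held most of the conventional sums, so they say little of the other markers. The plasmacytoid markers Siglech and Ccr9 stayed below 1 FPKM in every library. Neutrophil markers fell for 6 of 9 (sums 137, 209, 104 and 174) and erythroid markers for 2 of 5 (Hba-a1 and Hbb-bs; sums 15.0, 24.7, 20.9 and 21.97), with Alas2 and Klf1 below 1 FPKM in every library. Of 4 kept markers of leukaemic progenitors 1, Kit, rose and 0 fell (sums 19.7, 9.22, 29.5 and 15.2). These sums were higher in AML than in normal spleen in both subsets, and Kit held most of each (17.9, 7.86, 25.3 and 9.78). Mpo was at 0.25, 0.26, 1.58 and 2.29 FPKM, while Hoxa9, Cd34 and Elane stayed below 1 FPKM in every library. T cell markers rose for 8 of 14 and fell for 1, Cd8b1 (sums 319, 191, 332 and 182). NK cell markers, whose list includes the sorted Cd226, rose for 4 of 14 (Ncr1, Klrk1, Tbx21 and Cd226) and fell for 0 (sums 9635, 8565, 9999 and 9765).

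The SD of the members' ratios was near that of all genes, while the distance between their quartiles was wider. The SD of the log2 ratio after adding 1 FPKM in normal spleen was 0.49 over the 35 members and 0.23 over the 16 known mainly from the B lineage, against 1.31 over monocyte, 1.16 over plasma cell, 0.76 over T cell and 0.63 over macrophage markers, and 0.53 over all genes. The distance between the quartiles was wider over the 35 members than over all genes, 0.45 against 0.34 in normal and 0.46 against 0.29 in AML spleen. The lists nearest to the members were the 4 kept leukaemic progenitor genes (0.52) and the 9 neutrophil markers (0.55). These SDs are descriptions of lists of different sizes and levels and were not tested against each other.

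**Figure D5:**
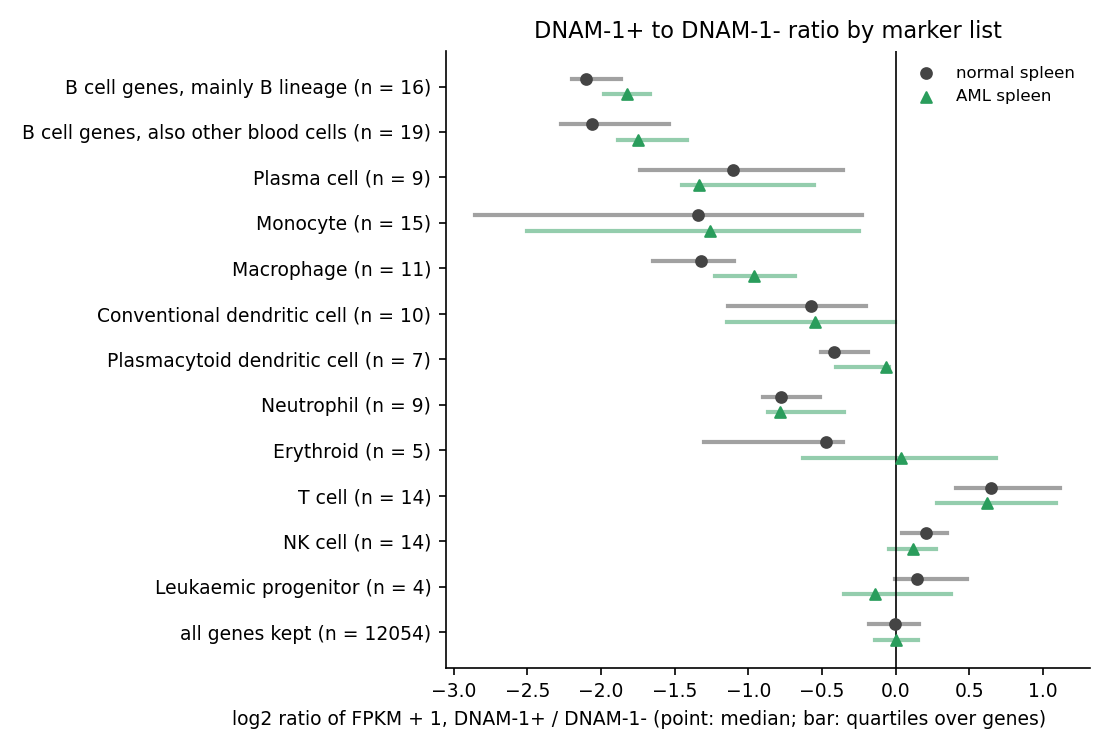
Median (points) and quartiles (bars) over genes of the log2 ratio of FPKM + 1 in DNAM-1+ to DNAM-1- cells, for both classes of B cell identity genes, 10 other marker lists and all genes kept, in normal (circles) and AML spleen (triangles). The B cell classes lie furthest to the left, with medians of -2.10 and -2.06 in normal spleen, and T cell markers lie to the right of 0.

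Genes outside the list were ranked by how close their 4 values, each gene centred on its own mean log2(FPKM + 1), came to the mean profile of the 16 members known mainly from the B lineage. The 10 nearest protein-coding genes were Ebi3, Smpdl3b, Cd74, Snn, Dusp16, Lrp1, Lyl1, Wdfy4, Lmo2 and Il13ra1, with distances of 0.07 to 0.13 over 4 libraries. Ebi3, the nearest, was at 0.74, 6.06, 0.84 and 5.43 FPKM, and Il13ra1 at 0.46, 5.78, 0.76 and 5.42. Adding 1 FPKM shrinks the ratios of such low genes. Their closeness thus holds on that scale only, and with no pseudocount their ratios lie further from 1 than the median ratio of the members. Lrp1 (1.81, 11.1, 1.94 and 10.5), a scavenger receptor known from macrophages, was also close. With 4 libraries a profile is little more than 1 ratio in each spleen, so many genes share it.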

How the data were processed

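RNA-seq libraries of sorted mouse splenic NK cells (4 groups, 1 library each) were analysed. The authors deposited FPKM by NCBI Gene number, rounded to 2 decimals, and only genes above 0 are listed, so an unlisted gene was taken as 0. Bowtie2 (2.2.5) and RSEM are named in the submitters' processing notes, with their roles, genome build and annotation not given in the sources used here. Of 17723 gene numbers 17668 matched the RefSeq gene table (GRCm38.p6), which served for names.

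Genes reaching 1 FPKM in any library (12054) were fitted on log2(FPKM + 1) with limma 3.58.1 (R 4.3.3), with its trend and with subset and spleen as additive terms, two-sided and Benjamini-Hochberg adjusted over all of them. In the text, rose and fell mean an adjusted p below 0.05. Tested on simulated data for the subset comparison over 12054 genes, it recovered 100 of 100 genes changed 2-fold and 100 of 100 changed 4-fold. Of its calls, 10.3% were unchanged genes, a larger share than the adjusted p limit of 0.05 is meant to allow. The changed genes were drawn from the more abundant ones and the noise from the spread of the fit itself. Low genes and differences among mice were thus not covered.

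Depth was estimated from steps of microRNA FPKM (55 to 100 nt), of which 90.3% to 93.9% lay within 0.1 read of a whole number of reads, up to 6. Read numbers used median GENCODE M21 transcript lengths.

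Named genes are all members, 4 checks of the sort (Cd226, Ncr1, Klrb1c and Ptprc), up to 4 most abundant genes of each pathway list, up to 3 of each marker list and 10 genes of like pattern. The members, lists, motifs and classes were chosen with earlier results of these data known. Alternatives for the pseudocount, floor, trend, scaling and covariate were run. A few genes of these lists are not reported here by name.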

Additional observations from a re-analysis of the deposited data

Results flagged for a closer look

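The median AML difference of the members was opposite in sign in the subsets. The median over the 35 B cell identity genes of the AML minus normal log2 difference was 0.11 in the DNAM-1+ libraries and -0.12 in the DNAM-1- libraries. In DNAM-1+ cells 8 of the members were lower in AML spleen, and in DNAM-1- cells 7 were higher. The DNAM-1+ to DNAM-1- ratio was also higher in AML spleen for 80.8% of the 360 genes at least 2-fold lower in both spleens. Each median compares 2 libraries, and the difference between the subsets was not tested.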

How the results depend on the processing

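All 35 members fell in DNAM-1+ cells under pseudocounts of 0.1 and 5 FPKM, a floor of 5 FPKM, TPM rescaling and median centring. Without the trend 33 fell, and with the spleen left out 34. With no floor 17723 genes were fitted and 0 members and 0 genes fell and 0 rose by limma (35 members and 3425 genes at an unadjusted p under 0.05; adjusted p of the members 0.117 to 0.146); the cause was not tested. Genes that rose numbered 534, 234 without the trend and 321 with the spleen left out.

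For AML, 4 genes rose and 5 fell. Those that rose numbered 2 with a pseudocount of 0.1 FPKM or TPM rescaling, and 0 with a pseudocount of 5 FPKM, no floor, no trend, median centring or the subset left out. Those that fell numbered 26 with a floor of 5 FPKM, 3 with median centring, 1 with a pseudocount of 5 FPKM, and 0 with no floor, no trend or the subset left out. The members called stayed at 0 in each of these fits.

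A pseudocount of 5 FPKM moved the median log2 ratio of the members from -2.06 to -1.46 in normal and from -1.75 to -1.34 in AML spleen, since it shrinks low genes. With no pseudocount, a setting chosen after seeing the data, it was -1.997 in AML spleen. The SD over members in normal spleen was 0.49, and 0.23 over those known mainly from the B lineage (the 5 genes outside the 1.5-fold band belong to the other class). No ratio reversed. No paired analysis was possible because no mouse or replicate number links libraries, so the additive term for the spleen is the only matching in the fit. Depth limits the ratios of low members such as Vpreb3 and Ccr6.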
